A study of Rattus norvegicus with 24 samples.

Results

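The genes described here form the corticotropin-releasing hormone (CRH) system and the corticosteroid receptors of the rat brain. They are Crh, its receptors Crhr1 and Crhr2, its binding protein Crhbp, the glucocorticoid receptor Nr3c1 and the mineralocorticoid receptor Nr3c2. All 6 members were found among the 35032 genes of the count table. 5 of them were found by their symbol, and Nr3c1 was found as ENSRNOG00000014096, a row named AABR07031756.1 whose description carries the NCBI gene number of Nr3c1.

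mRNA was counted in 24 libraries, 3 in each of 8 groups, from 2 brain regions. They were the hypothalamic paraventricular nucleus (PVN) and the central amygdaloid nucleus (CEA). The rats were male Sprague-Dawley animals bought at 7 weeks of age and adapted for 1 week. The normal control group (NC) was not operated. The hepatectomy group (HT) lost about 20% of the left liver lobe under isoflurane, and the HT+EA group (EA here) had the same operation with electroacupuncture at the ST36 and SP6 points on the day before and again straight after surgery. The HT+SEA group (SEA here) had the operation and the needles without current. Rats of all 4 groups were restrained for the same length of time, so NC was a restrained control. Tissue was taken 24 h after the last stimulation. The region was dissected by atlas as bulk tissue, so fewer cells of a type and less RNA per cell cannot be told apart in any result that follows. No source used here ties a library to a named rat, and p-values measure the spread between these libraries.

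CRH is the peptide with which neurons of the PVN drive the pituitary to release corticotropin, and through it the adrenal gland to release corticosteroids. CRH acts on G protein-coupled receptors that raise cyclic AMP, and a secreted binding protein holds part of the peptide away from them. Corticosteroids return to the brain and act on a high-affinity mineralocorticoid receptor and a lower-affinity glucocorticoid receptor, which feed back on the PVN. The CEA is known for its own population of CRH neurons.

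The promoters of the receptors and the binding protein are shown because Crhr2 and Crhbp were lower in the CEA of operated rats while Crhr1 did not pass that test. RefSeq windows of the 250 bases before the transcription start were present for 3 of the 5 members looked up (Crhr1, Crhr2 and Crhbp). The sequences come from RefSeq on GRCr8, a newer assembly than the coordinates of the count table, and run 5′ to 3′ along each gene. Capitals mark matches on either strand to the letters GGGCGG of a GC box and TGACG of a cyclic AMP response element. The 1st of 2 Crhr1 windows lies at chr10:89539959-89540208 on the plus strand, the Crhr2 window at chr4:85581464-85581713 on the minus strand and the Crhbp window at chr2:28439447-28439696 on the minus strand.
Crhr1: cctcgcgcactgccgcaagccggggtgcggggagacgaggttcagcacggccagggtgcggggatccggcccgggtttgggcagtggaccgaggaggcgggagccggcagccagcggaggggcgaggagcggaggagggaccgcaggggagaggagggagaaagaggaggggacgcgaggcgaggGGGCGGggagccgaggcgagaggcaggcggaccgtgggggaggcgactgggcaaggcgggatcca
Crhr2: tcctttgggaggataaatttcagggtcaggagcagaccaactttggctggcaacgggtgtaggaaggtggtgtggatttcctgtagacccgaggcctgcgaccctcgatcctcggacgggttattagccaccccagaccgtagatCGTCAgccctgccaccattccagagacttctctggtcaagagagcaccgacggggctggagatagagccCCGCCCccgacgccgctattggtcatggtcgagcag
Crhbp: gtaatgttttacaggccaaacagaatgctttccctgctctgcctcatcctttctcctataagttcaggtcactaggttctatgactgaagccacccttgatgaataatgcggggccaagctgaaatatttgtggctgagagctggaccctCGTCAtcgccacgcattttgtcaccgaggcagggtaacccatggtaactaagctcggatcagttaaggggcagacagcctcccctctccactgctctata

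The windows were 75.2% (Crhr1), 59.2% (Crhr2) and 50% (Crhbp) G and C, beside a median of 51.2% over 33469 rat promoters. The GC box occurred once in the Crhr1 and Crhr2 windows and in 30.5% of all promoters. TGACG occurred once in the Crhr2 and Crhbp windows and in 18.2% of all promoters. Neither TATAAA (12.9% of promoters) nor AGAACA, the conserved letters of a glucocorticoid response element (17.5% of promoters), stood in any of the 3 windows. These matches are letters in a window and no measurement of binding.

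In the table's own coordinates, Crh lies at chr2:104459999-104461863 and Crhbp at chr2:25141471-25153334, both on the minus strand. Crhr1 lies at chr10:92191718-92232645 on the plus strand and Crhr2 at chr4:85286372-85329362 on the minus strand. Nr3c1 lies at chr18:31728373-31749647 and Nr3c2 at chr19:34448289-34752695, both on the minus strand. Each value counts reads over a whole gene. Nr3c2 overlaps 2 plus-strand annotations that held 0 and 1 counts over all 24 libraries.

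Library totals ran from 13152772 to 18607032 counts. Levels are given as CPM, counts scaled to a common library total with TMM factors over all libraries. The defining PVN transcription factors Sim1 (9.85 to 16.7 CPM) and Otp (23.2 to 30.1 CPM) were present in all 12 PVN libraries and at 1.43 CPM or less in all 12 CEA libraries. Markers of the neighbouring ventromedial nucleus, Nr5a1 (2.88 to 9.15 CPM) and Fezf1 (9.47 to 26.5 CPM), were also present in the PVN libraries. Among the 7 CEA markers, Prkcd and Penk had higher medians in the CEA, whereas Nts, Tac3, Sst, Cartpt and Dlk1 had higher medians in the PVN. Prkcd is also on the thalamus list used here, and Penk had the highest CEA median of the 7 (749 CPM). Summed markers of striatum reached 1830 to 5598 CPM in the CEA libraries against 128 to 238 CPM in the PVN libraries. Summed oligodendrocyte markers were also higher in every CEA library (22888 to 39228 CPM) than in every PVN library (8717 to 14779 CPM), while microglia markers overlapped (170 to 265 and 110 to 172 CPM). The part of these cell types in the regional differences was not tested. The libraries labelled CEA thus held a large striatal signal, and their label rested on few of its own markers. In composition 3 libraries stood apart by long genes. Protein-coding genes with a listed length over 5000 bases took 13.1% and 13.3% of counts in PVN NC replicates 1 and 3. They took 11.4% in CEA HT replicate 2, against 14.2% to 17.3% in the other 21 libraries. In CEA EA replicate 2 mitochondrial genes took 3.80% of counts, against 10.06% to 14.4% in the other CEA libraries. Summed choroid plexus markers reached 1049 CPM in CEA NC replicate 2, 1742 CPM in CEA SEA replicate 2 and 369 CPM in CEA EA replicate 1, against 5.76 to 21.7 CPM in the other 9 CEA libraries.

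Crh, the ligand, was detected in all 24 libraries and was higher in the PVN. Its PVN levels were 12.3, 8.01 and 12.6 CPM in NC, 7.29, 7.32 and 4.22 CPM in HT, 10.03, 9.10 and 9.20 CPM in EA, and 8.49, 8.12 and 7.59 CPM in SEA (replicates 1 to 3). Its CEA levels were 2.09, 0.723 and 1.14 CPM in NC, 0.595, 1.23 and 0.924 CPM in HT, 2.19, 2.77 and 2.81 CPM in EA, and 3.13, 1.81 and 0.640 CPM in SEA. Every PVN library was above every CEA library. The PVN values stand on 72 to 225 counts and the CEA values on 8 to 49 counts, so counting error was much larger in the CEA.

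**Figure D1:**
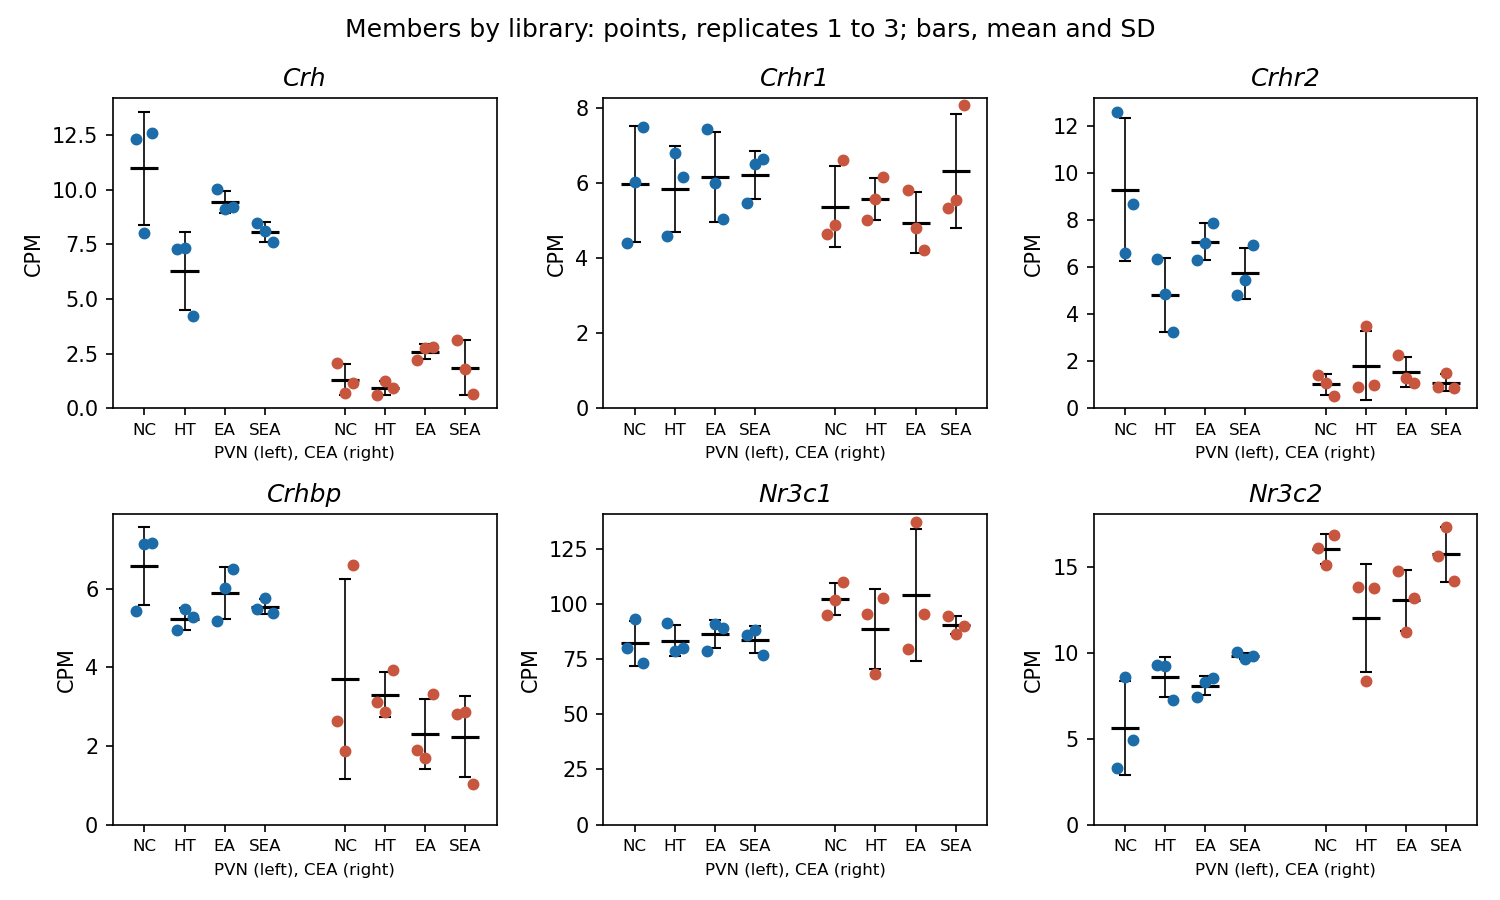
CPM of the 6 genes (vertical axes, each from 0) in the 8 groups, PVN in blue and CEA in red; points are replicates 1 to 3 and black bars the mean and SD. Crh and Crhr2 sit higher in the PVN, Nr3c2 sits higher in the CEA, and the groups of Crhr1 overlap throughout.

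By mean level the order for Crh was PVN NC (10.97 ± 2.57 CPM), PVN EA (9.44 ± 0.507), PVN SEA (8.07 ± 0.448), PVN HT (6.28 ± 1.78), CEA EA (2.59 ± 0.347), CEA SEA (1.86 ± 1.25), CEA NC (1.32 ± 0.701) and CEA HT (0.917 ± 0.318; SD, n = 3). PVN NC overlapped its neighbour EA, and each neighbouring pair within the CEA overlapped. PVN EA, SEA and HT followed each other with no overlap, and all 3 HT libraries lay below every other PVN library. The lowest PVN value belonged to HT replicate 3.

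In unoperated rats Crh was lower in the CEA than in the PVN by a log2 fold change of -3.05 (SE 0.40, 95% interval -3.98 to -2.12, edgeR quasi-likelihood test, adjusted p = 0.00241). In operated rats, with treatment as a term, the log2 fold change was -2.20 (SE 0.22, interval -2.67 to -1.74, edgeR adjusted p = 1.33e-07), and without CEA HT replicate 2 and CEA EA replicate 2 it was -2.25. Of the 6 members, 3 passed an adjusted p of 0.05 between regions in NC, beside 26.4% of all genes tested. In operated rats 4 of 6 passed, beside 52.8% of all genes. With both PVN NC libraries of low long-gene share (replicates 1 and 3) left out, which leaves 1 PVN library, the NC log2 fold change of Crh was -2.57 and its adjusted p 0.0740, and 0 members passed, beside 2.455% of all genes. With all libraries, 4 members passed an unadjusted p of 0.05 in NC, beside 40.0% of genes, and 4 had separate ranges, beside 45.1%. In operated rats 4 passed an unadjusted p, beside 57.9% of genes.

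**Figure D2:**
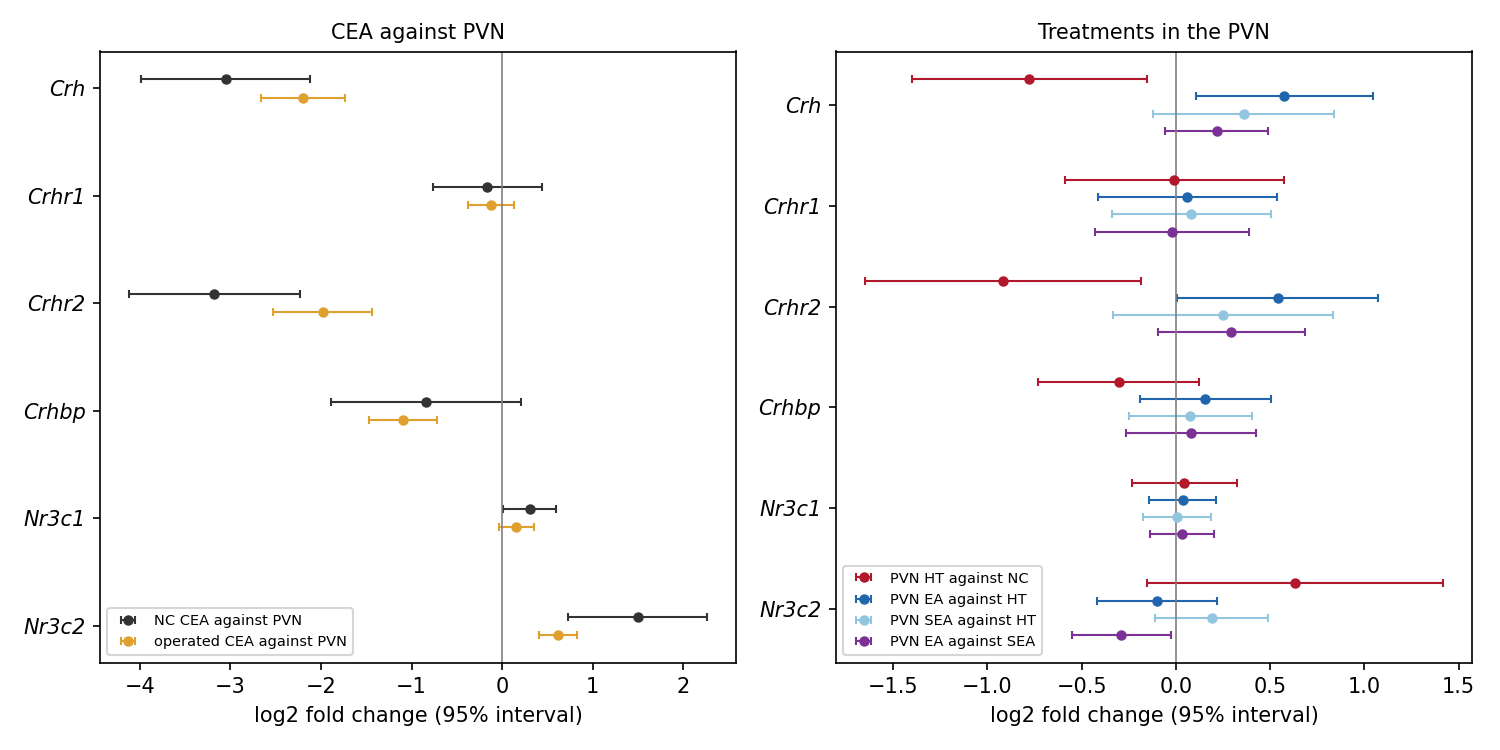
log2 fold changes of the 6 genes (points) with 95% intervals (bars) for the CEA against the PVN on the left and for 4 treatment comparisons in the PVN on the right. Crh and Crhr2 lie far below 0 between regions, and the treatment intervals are wide beside their distance from 0.

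Crhr1 is the receptor through which CRH acts on corticotropes and on many forebrain neurons. Its level ranged from 4.42 to 7.50 CPM in the PVN (median 6.10) and from 4.24 to 8.08 CPM in the CEA (median 5.45). All 8 groups overlapped their neighbours in the order of means, which ran from CEA SEA (6.33 ± 1.52 CPM) down to CEA EA (4.96 ± 0.811). The regional log2 fold change was -0.17 (interval -0.77 to 0.44, adjusted p = 0.667) in NC and -0.12 (interval -0.37 to 0.14, adjusted p = 0.433) in operated rats. Neither value passed the test, and the interval in NC was the wider.

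Crhr2 encodes the receptor that prefers the urocortins, and its regional pattern was closer to that of the ligand than to that of Crhr1. In the PVN it stood at 12.6, 6.59 and 8.67 CPM in NC, 6.35, 4.86 and 3.23 CPM in HT, 6.31, 7.01 and 7.87 CPM in EA, and 4.83, 5.44 and 6.94 CPM in SEA. In the CEA it stood at 1.43, 1.08 and 0.534 CPM in NC, 0.926, 3.501 and 0.985 CPM in HT, 2.26, 1.28 and 1.09 CPM in EA, and 0.913, 1.497 and 0.880 CPM in SEA. CEA HT replicate 2, a library of unusual composition, reached 3.501 CPM and was the only CEA library above any PVN library, namely HT replicate 3.

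By mean the order of Crhr2 was PVN NC (9.28 ± 3.03 CPM), EA (7.06 ± 0.785), SEA (5.74 ± 1.08) and HT (4.81 ± 1.56), then CEA HT (1.80 ± 1.47), EA (1.54 ± 0.628), SEA (1.10 ± 0.347) and NC (1.02 ± 0.453). Each group overlapped the next, that last PVN group and the first CEA group included. The regional log2 fold change was -3.18 in NC (SE 0.40, interval -4.12 to -2.23, edgeR adjusted p = 0.00225) and -1.98 in operated rats (SE 0.26, interval -2.52 to -1.44, edgeR adjusted p = 3.66e-06). Dropping PVN NC replicates 1 and 3 made the NC value -2.66 (adjusted p = 0.0631). Without CEA HT replicate 2 the value in operated rats was -2.29.

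The receptors were next set against each other, as a description with no test. Levels of different genes are comparable only per length, so CPM was divided by gene length in kilobases. The table lists 1248 bases for Crhr1 and 3027 for Crhr2, and a short listed length raises a gene's value per kilobase. On this scale Crhr1 was 4.85 ± 0.812 and Crhr2 2.22 ± 0.776 CPM per kilobase over PVN libraries, and they were 4.46 ± 0.831 and 0.451 ± 0.264 over CEA libraries (SD, n = 12). The ratio of Crhr1 to Crhr2 was 0.853 to 4.63 in PVN libraries (mean 2.45) and 3.86 to 30.02 in CEA libraries (mean 12.6). It was below 1 in a single library, PVN NC replicate 1. The lowest CEA ratio, 3.86, was that of HT replicate 2, and it was the only CEA ratio below the highest PVN ratio.

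**Figure D3:**
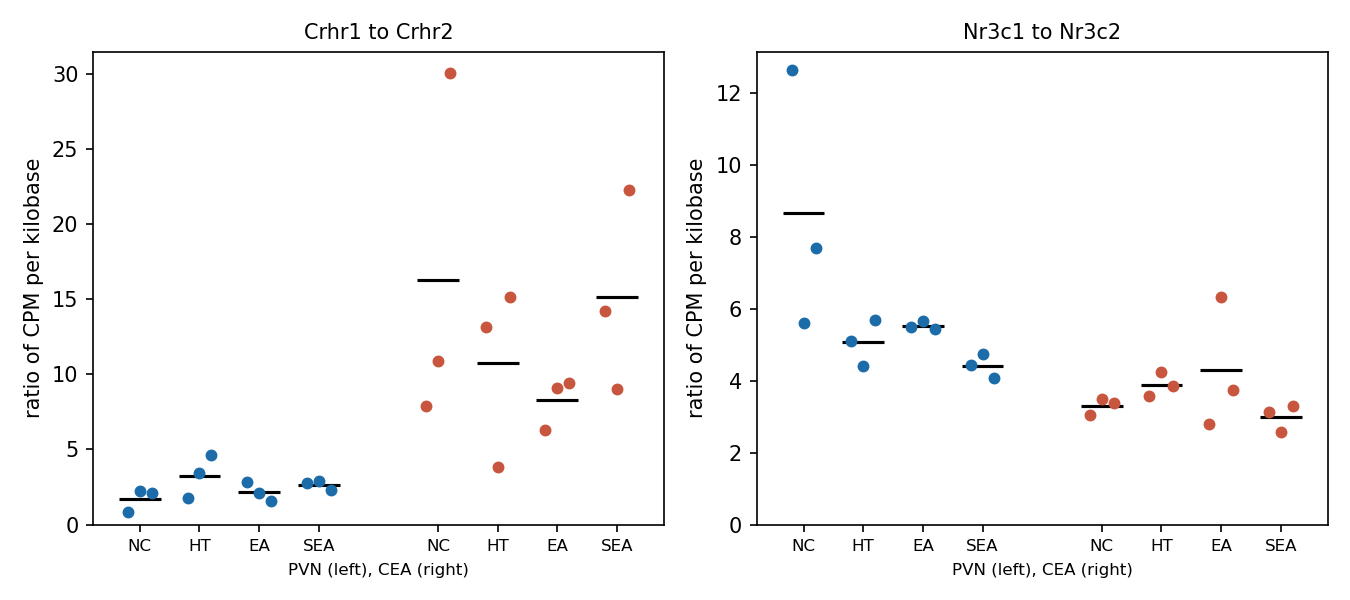
Ratio of CPM per kilobase of Crhr1 to Crhr2 (left) and of Nr3c1 to Nr3c2 (right) in each library, by group, with the group mean as a bar. The receptor ratio for CRH spreads from 3.86 to 30.02 in the CEA and stays at 4.63 or below in the PVN, while the corticosteroid receptor ratio is highest in PVN NC replicate 1 (12.7).

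Crhbp, the secreted protein that binds CRH, ranged from 4.94 to 7.16 CPM in the PVN. In the CEA it stood at 2.63, 1.87 and 6.61 CPM in NC, 3.11, 2.85 and 3.94 CPM in HT, 1.90, 1.69 and 3.32 CPM in EA, and 2.80, 2.87 and 1.04 CPM in SEA. CEA NC replicate 3 was the only CEA library inside the PVN range. Neighbouring groups overlapped throughout the order, which ran from PVN NC (6.58 ± 0.993 CPM) to PVN HT (5.24 ± 0.275) and from CEA NC (3.70 ± 2.55) to CEA SEA (2.24 ± 1.04).

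In operated rats Crhbp was lower in the CEA by a log2 fold change of -1.09 (SE 0.18, interval -1.47 to -0.72, edgeR adjusted p = 4.83e-05), and the 9 libraries of each region did not overlap. Without CEA HT replicate 2 and CEA EA replicate 2 the value was -1.02. The ranges of 2 of 6 members, Crh and Crhbp, were separate there, beside 19.7% of all genes. In NC the value was -0.84 (SE 0.45, interval -1.89 to 0.21, edgeR adjusted p = 0.204). Without CEA NC replicate 3 it was -1.55 with an adjusted p of 0.0219, so the call in NC changed with that library, in a fit where 14.3% of genes passed. Without CEA NC replicate 2, a library with choroid plexus reads, it was -0.52, and without PVN NC replicates 1 and 3 it was -0.93 (edgeR adjusted p = 0.474).

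Nr3c1, the glucocorticoid receptor, was the most abundant of the 6 genes per length in both regions, at 16.5 ± 1.32 CPM per kilobase in the PVN and 18.99 ± 3.33 in the CEA (SD, 12 libraries). Its CPM ran from 73.2 to 93.3 in the PVN (median 83.2) and from 68.4 to 137 in the CEA (median 95.4). CEA HT replicate 2 was lowest and CEA EA replicate 2 highest. The group means ran from 104 ± 29.8 CPM in CEA EA, 102 ± 7.37 in CEA NC, 90.4 ± 4.07 in CEA SEA and 88.9 ± 18.1 in CEA HT to 86.5 ± 6.56 in PVN EA, 83.9 ± 6.03 in PVN SEA, 83.4 ± 7.10 in PVN HT and 82.2 ± 10.2 in PVN NC. CEA NC lay wholly above CEA SEA, and every other neighbouring pair overlapped.

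The regional log2 fold change of Nr3c1 was 0.30 in NC (SE 0.13, interval 0.010 to 0.60, edgeR adjusted p = 0.114) and 0.16 in operated rats (SE 0.09, interval -0.039 to 0.35, edgeR adjusted p = 0.167). Dropping PVN NC replicate 2 made the NC value 0.41 (adjusted p = 0.0278, with 36.1% of genes passing), and dropping PVN NC replicates 1 and 3 made it 0.16 (adjusted p = 0.554). Without CEA HT replicate 2 the operated value was 0.21 (adjusted p = 0.0444, with 54.9% of genes passing), and without that library and CEA EA replicate 2 it was 0.13 (adjusted p = 0.0679).

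Nr3c2, the mineralocorticoid receptor, was higher in the CEA. Its CEA levels were 16.1, 15.1 and 16.8 CPM in NC, 13.8, 8.36 and 13.8 CPM in HT, 14.7, 11.2 and 13.2 CPM in EA, and 15.7, 17.3 and 14.2 CPM in SEA. Its PVN levels were 3.28, 8.61 and 4.92 CPM in NC, 9.29, 9.21 and 7.27 CPM in HT, 7.44, 8.32 and 8.51 CPM in EA, and 10.02, 9.66 and 9.81 CPM in SEA. The 2 lowest values were PVN NC replicates 1 and 3, and the lowest CEA value was HT replicate 2. These are the same 3 libraries in which long genes took the smallest share of counts, and the part of that composition in the Nr3c2 values was not tested. Nr3c2 itself has a listed length of 2631 bases and is not among those long genes.

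The order of means for Nr3c2 was CEA NC (16.0 ± 0.863 CPM), SEA (15.7 ± 1.59), EA (13.04 ± 1.76) and HT (11.995 ± 3.14), then PVN SEA (9.83 ± 0.181), HT (8.59 ± 1.14), EA (8.09 ± 0.570) and NC (5.60 ± 2.73). PVN SEA lay above PVN HT with no overlap, and all other neighbours overlapped. The regional log2 fold change was 1.497 in NC (SE 0.33, interval 0.73 to 2.26, edgeR adjusted p = 0.0156) and 0.62 in operated rats (SE 0.10, interval 0.41 to 0.82, edgeR adjusted p = 3.45e-05). In NC it was 0.92 (adjusted p = 0.0684) without PVN NC replicates 1 and 3, and the adjusted p became 0.0592 when PVN NC replicate 3 alone was dropped and 0.0517 when CEA NC replicate 3 was. In operated rats it was 0.71 (adjusted p = 2.19e-07) without CEA HT replicate 2 and CEA EA replicate 2.

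**Figure D4:**
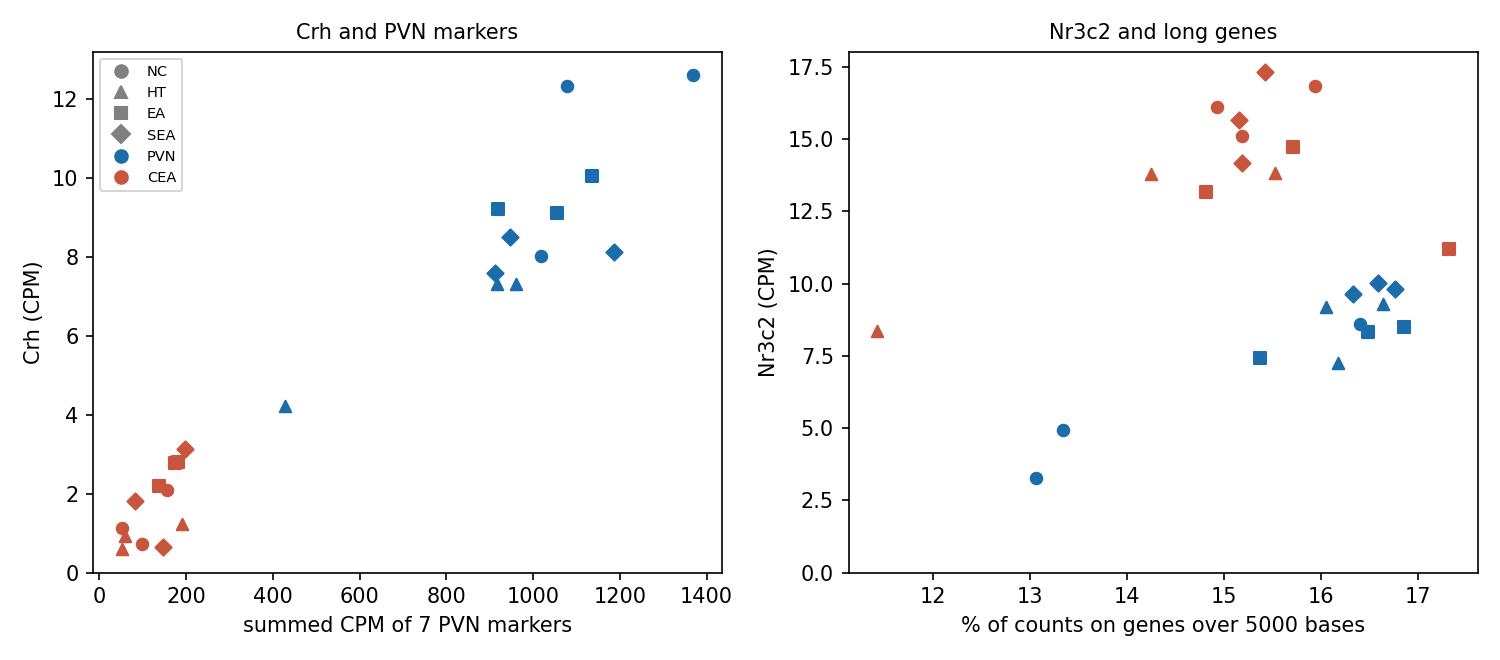
Left, Crh (CPM) against the summed CPM of 7 PVN markers, Crh among them; right, Nr3c2 (CPM) against the percent of counts on genes longer than 5000 bases. Each point is a library, with region by colour and treatment by shape. PVN HT replicate 3 is the lowest blue point on the left (4.22 CPM), and PVN NC replicates 1 and 3 and CEA HT replicate 2 lie apart on the right (11.4% to 13.3%).

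The ratio of Nr3c1 to Nr3c2 per kilobase was 4.07 to 12.7 in PVN libraries (mean 5.93) and 2.58 to 6.35 in CEA libraries (mean 3.63). PVN NC replicates 1 and 3 (12.7 and 7.70) gave the highest ratios. The highest CEA ratio, 6.35, was in EA replicate 2, the library of low mitochondrial share.

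Hepatectomy was compared with NC in the PVN to follow the system after surgery. Crh was lower in all 3 HT libraries (4.22 to 7.32 CPM) than in all 3 NC libraries (8.01 to 12.6 CPM), and the log2 fold change was -0.78 (SE 0.27, interval -1.40 to -0.15). Crhr2 was likewise lower in all 3 HT libraries (3.23 to 6.35 against 6.59 to 12.6 CPM), and the log2 fold change was -0.92 (SE 0.31, interval -1.65 to -0.18). By edgeR the unadjusted p-values were 0.0209 and 0.0206, and both adjusted p-values were 0.418. Neither gene therefore passed the adjusted threshold.

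At an adjusted p of 0.05, 0 of 6 members passed in PVN HT against NC, beside 0.0120% of genes tested. At an unadjusted p of 0.05, 2 of 6 passed, both lower, beside 5.35% of genes that were lower and 11.0% in either direction. The same 2 genes had separate ranges, beside 17.1% of genes. Nr3c2 was 0.63 higher on the log2 scale (SE 0.34, interval -0.15 to 1.42, edgeR adjusted p = 0.428), with overlapping groups, and Crhbp had a log2 fold change of -0.30 (interval -0.73 to 0.12). Crhr1 (-0.0083) and Nr3c1 (0.045) stood near 0, with intervals of -0.59 to 0.57 and -0.23 to 0.32.

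These values turned on the NC libraries. Without NC replicate 2, Crh (-0.96, adjusted p = 0.0322), Crhr2 (-1.11, adjusted p = 0.0388) and Nr3c2 (1.09, adjusted p = 0.0183) all passed. These 3 of 6 stood beside 20.2% of all genes, so calls rose across the whole table in that setting. Without NC replicates 1 and 3, which leaves 1 NC library, the log2 fold changes were -0.35 for Crh, -0.45 for Crhr2 and 0.0041 for Nr3c2. Wherever these NC libraries are left out, here and below, the spread comes from the other groups alone. A call lost in that setting can therefore not be read as a result. Without HT replicate 3 the log2 fold changes were -0.56 for Crh and -0.70 for Crhr2.

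**Figure D5:**
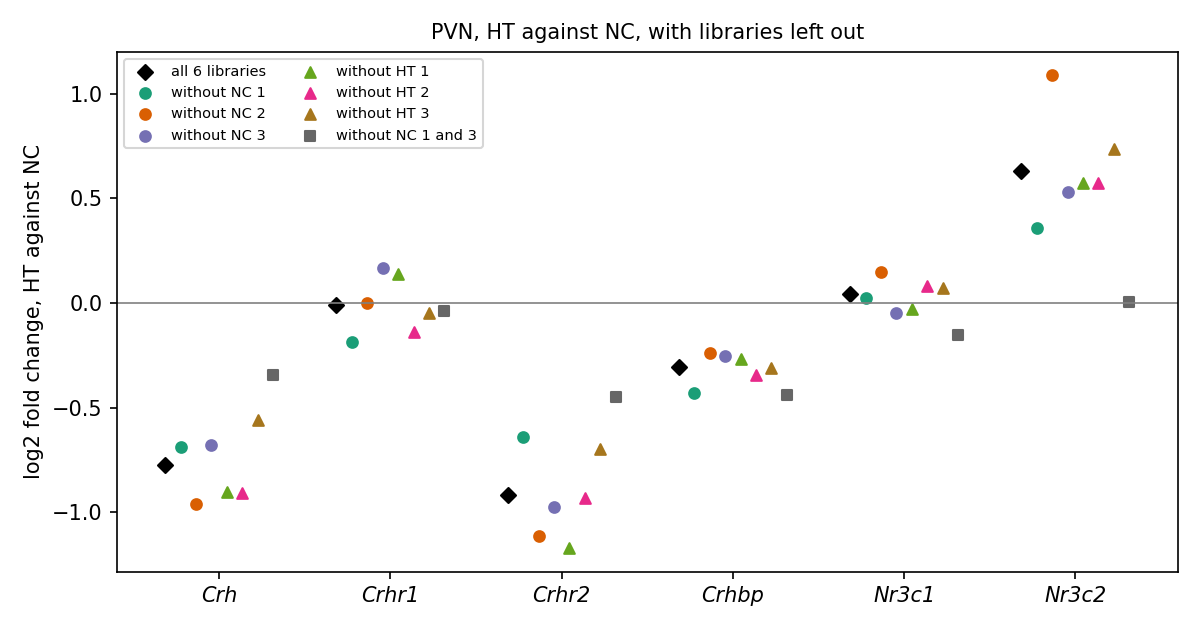
log2 fold change of each gene for PVN HT against NC with all 6 libraries (black diamonds), with 1 library left out (circles, NC; triangles, HT) and with NC replicates 1 and 3 left out (grey squares). Crh and Crhr2 stay below 0 in every setting drawn, while Nr3c2 moves from 1.09 without NC replicate 2 to 0.0041 without NC replicates 1 and 3.

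HT replicate 3, the library lowest for Crh and Crhr2 in the PVN, was also lowest for the summed PVN markers, at 429 CPM against 912 to 1370 CPM in the other 11 PVN libraries. Oxytocin (Oxt) stood at 147 CPM there, against 470 to 788 CPM in the others, and vasopressin (Avp) at 170 CPM, against 214 to 380 CPM. The transcription factor Sim1 (11.4 CPM) was within the range of the others, and Otp (23.2 CPM) was the lowest by a small margin, with 23.7 CPM in HT replicate 2. In the same library the corticosteroid-responsive genes Fkbp5 (93.9 CPM) and Zbtb16 (40.0 CPM) had their highest PVN values, above 66.6 and 23.3 CPM in the next library, EA replicate 1. All 3 HT libraries lay below all 3 NC libraries in summed PVN markers (429 to 962 against 1019 to 1370 CPM), of which Crh is 1. The same held for markers of blood (382 to 565 against 661 to 924 CPM), choroid plexus (5.36 to 7.12 against 9.40 to 10.1 CPM) and astrocytes (1607 to 1809 against 1816 to 2274 CPM). HT lay above NC for markers of thalamus (417 to 513 against 273 to 414 CPM) and of cortical and hippocampal excitatory neurons (20.3 to 23.5 against 4.73 to 19.3 CPM). The part of these differences in the Crh and Crhr2 values was not tested.

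Electroacupuncture was compared with hepatectomy alone. Crh was higher in the 3 PVN EA libraries (9.10 to 10.03 CPM) than in the 3 HT libraries, and the log2 fold change was 0.57 (SE 0.21, interval 0.11 to 1.04, edgeR adjusted p = 0.762). It was the 1 member with separate ranges, beside 2004 of 16641 genes in either direction and 7.22% of genes that were higher. The paper reports the opposite directions for CRH mRNA in the PVN by RT-PCR, an increase in HT and a decrease in HT+EA. The reason for this difference was not tested. Crhr2 was higher by 0.54 on the log2 scale (SE 0.23, interval 0.0063 to 1.07, edgeR adjusted p = 0.872), and EA replicate 1 (6.306 CPM) lay just below HT replicate 1 (6.353 CPM). At an adjusted p of 0.05, 0 of 6 members passed, beside 0.0961% of genes, and at an unadjusted p 2 of 6 passed, both higher, beside 2.10% that were higher and 5.67% in either direction. The other 4 members had log2 fold changes between -0.10 (Nr3c2) and 0.16 (Crhbp). Both comparisons use the HT libraries, so a low HT value enters each with opposite sign. Markers of blood (623 to 954 CPM in EA, 382 to 565 CPM in HT) and of choroid plexus (9.10 to 10.2 and 5.36 to 7.12 CPM) were also higher in every EA library, and their part in the Crh value was not tested. Without HT replicate 3 the EA values were 0.36 for Crh and 0.32 for Crhr2.

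Needling without current gave a log2 fold change for Crh of 0.36 against HT (SE 0.21, interval -0.12 to 0.84, edgeR adjusted p = 0.981), and without HT replicate 3 it was 0.14. The SEA libraries (7.59 to 8.49 CPM) nevertheless did not overlap the HT libraries, and the same held for Nr3c2 (9.66 to 10.02 against 7.27 to 9.29 CPM, log2 fold change 0.19, interval -0.11 to 0.49, and 0.081 without HT replicate 3). These were 2 of 6 members with separate ranges, beside 9.88% of genes. Crhr2 was at 0.25 (interval -0.34 to 0.83), and 0.025 without HT replicate 3. Markers of astrocytes (1893 to 2120 CPM in SEA, 1607 to 1809 CPM in HT) and of choroid plexus (7.72 to 8.25 and 5.36 to 7.12 CPM) did not overlap either, and their part in these values was not tested. Of the members, 0 passed at an adjusted p (0% of genes) or at an unadjusted p (4.38% of genes).

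The effect of the current itself is the difference between EA and SEA, which does not use the HT or NC libraries. Crh was higher in all 3 EA libraries than in all 3 SEA libraries, with a log2 fold change of 0.22 (SE 0.12, interval -0.056 to 0.49, edgeR adjusted p = 0.949). Nr3c2 was lower in all 3 EA libraries, with a log2 fold change of -0.29 (SE 0.12, interval -0.55 to -0.029, edgeR adjusted p = 0.917). These 2 of 6 members had separate ranges, beside 10.7% of genes, and 1 passed at an unadjusted p, beside 5.21% of genes. Crhr2 had a log2 fold change of 0.29 (interval -0.10 to 0.68), which was 0.19 without SEA replicate 1 and 0.45 without SEA replicate 3. Choroid plexus markers (9.10 to 10.2 CPM in EA, 7.72 to 8.25 CPM in SEA) and the summed CEA markers (794 to 881 and 761 to 783 CPM) were likewise higher in every EA library, and their part in the Crh and Nr3c2 values was not tested. At an adjusted p 0 of 6 members passed, as did 0% of genes.

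All 9 operated PVN libraries were then set against NC. The mean log2 fold changes were -0.47 for Crh (SE 0.17, interval -0.83 to -0.10, edgeR adjusted p = 0.100), -0.66 for Crhr2 (SE 0.21, interval -1.11 to -0.20, edgeR adjusted p = 0.0812) and 0.66 for Nr3c2 (SE 0.22, interval 0.17 to 1.15, edgeR adjusted p = 0.0896). Crhbp was at -0.23 (interval -0.49 to 0.036). Of the members, 0 of 6 passed at an adjusted p, beside 0.0639% of genes, and 3 passed at an unadjusted p, beside 29.8% of genes. DESeq2, run as an alternative, called Crhr2 (adjusted p = 0.0331) and Nr3c2 (adjusted p = 0.0282) here, beside 19.1% of the 12532 genes to which it gave an adjusted p. Separate ranges were seen for 0 of 6, beside 4.08% of genes. Without NC replicates 1 and 3 the values were -0.035 for Crh, -0.19 for Crhr2 and 0.033 for Nr3c2. Without NC replicate 2 they were -0.64, -0.85 and 1.12, with adjusted p-values of 0.00926, 0.00924 and 0.000283, in a fit where 33.7% of genes passed.

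In the CEA, 0 of 6 members passed an adjusted p in any of the 5 treatment comparisons, as did 0% of all genes in each. Crh had the largest value, a log2 fold change of 1.48 in EA against HT (SE 0.38, interval 0.60 to 2.36, edgeR adjusted p = 0.930). All 3 EA libraries (30 to 49 counts, 2.19 to 2.81 CPM) were above all 3 HT libraries (9 to 19 counts, 0.595 to 1.23 CPM). It was the 1 member past an unadjusted p there, beside 3.19% of genes, and the 1 with separate ranges, beside 9.66%. Left-out libraries gave 1.26 to 1.76. The sham group gave 1.02 for Crh against HT (SE 0.59, interval -0.36 to 2.40, edgeR adjusted p = 0.959), and EA against SEA gave 0.46 (SE 0.49, interval -0.70 to 1.61, edgeR adjusted p = 0.9999), both with overlapping groups. Without CEA SEA replicate 1 these values were 0.41 and 1.06, and without CEA SEA replicate 3 they were 1.41 and 0.063. Genes of magnocellular PVN neurons were read in the same libraries. Oxt was at 69.1 to 77.9 CPM in CEA EA and 10.5 to 76.4 CPM in CEA HT, and Avp at 23.8 to 47.0 and 7.08 to 46.6 CPM. The summed PVN markers were 138 to 182 CPM in CEA EA and 52.9 to 191 CPM in CEA HT. The striatal markers summed to 1927 to 3183 CPM in CEA EA and 3345 to 5598 CPM in CEA HT, and the CEA markers to 1089 to 1174 and 1284 to 1828 CPM, so both sums were lower in every EA library. The part of these markers in the Crh values was not tested.

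In CEA HT against NC, Nr3c2 was lower in all 3 HT libraries, with a log2 fold change of -0.41 (SE 0.22, interval -0.93 to 0.11, edgeR adjusted p = 0.918), and without HT replicate 2 it was -0.20. Astrocyte markers were also lower in every CEA HT library (1573 to 1731 CPM) than in every CEA NC library (1941 to 2568 CPM), and their part in this value was not tested. Nr3c2 was the 1 member with separate ranges, beside 10.4% of genes, and 0 members passed an unadjusted p, beside 3.75% of genes. Crh was at -0.51 (interval -1.68 to 0.66), and at -0.0045 without NC replicate 1. Crhr2 was at 0.82 (interval -0.65 to 2.29), and at -0.083 without HT replicate 2, so its direction rested on that library. In CEA SEA against HT, Nr3c2 was higher in all 3 SEA libraries by 0.38 on the log2 scale (interval -0.16 to 0.92), the 1 member with separate ranges, beside 9.86% of genes. Without HT replicate 2 the value was 0.18. The summed CEA markers were lower in every SEA library (1048 to 1245 CPM) than in every HT library (1284 to 1828 CPM), and their part in this value was not tested. The members at an unadjusted p numbered 0 in SEA against HT (3.07% of genes), in EA against SEA (1.99%) and in operated rats against NC (2.82%). Separate ranges were seen for 0 members in EA against SEA (6.75% of genes) and in operated rats against NC (0.569%).

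Over the 10 treatment comparisons of both regions, the log2 fold changes of Crhr1 ran from -0.35 to 0.16 and those of Nr3c1 from -0.20 to 0.22, and 0 of these 20 values had an unadjusted p under 0.05.

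Whether the regions differed in their response was tested as an interaction. For HT against NC, the PVN change minus the CEA change was -1.71 for Crhr2 (SE 0.73, interval -3.31 to -0.12) and 1.07 for Nr3c2 (SE 0.43, interval 0.13 to 2.004), both with an adjusted p of 0.413. Without CEA HT replicate 2 the Crhr2 value was -0.80. Without PVN NC replicate 2 the Nr3c2 value was 1.53 and passed (edgeR adjusted p = 0.0359), beside 3.93% of genes. Without PVN NC replicates 1 and 3 the values were -1.26 for Crhr2 and 0.42 for Nr3c2. These were 2 of 6 members at an unadjusted p, beside 12.1% of genes. For EA against HT, Crh gave -0.90 (SE 0.39, interval -1.76 to -0.045, edgeR adjusted p = 0.945), the 1 member at an unadjusted p, beside 4.52% of genes. Without CEA HT replicate 2 it was -1.17. At an adjusted p 0 members and 0% of genes passed in either.

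Other genes of the pathway were read from lists of peptides, signalling proteins and corticosteroid genes. The list of 11 other genes of the CRH family and its release held peptide genes, the corticotropin receptor Mc2r and the receptor accessory protein Mrap2. Of these 11, 8 were abundant enough to be tested between the regions, Mrap2 among them. All 8 were lower in the CEA at an adjusted p in NC and in operated rats (median log2 fold changes -4.07 and -3.14, beside -0.013 and 0.023 over all genes). Of all genes, 13.7% were lower in the CEA at an adjusted p in NC and 25.6% in operated rats. Without PVN NC replicates 1 and 3, 2 of the 8 passed in NC (median -3.95), beside 2.455% of genes in either direction, and without CEA HT replicate 2 and CEA EA replicate 2 all 8 passed in operated rats, beside 57.0% of genes. Adcyap1, which encodes the peptide PACAP, was at -4.52 in NC (SE 0.14, edgeR adjusted p = 4e-05), and Pomc, the precursor of corticotropin, at -4.14 (SE 0.29, edgeR adjusted p = 0.000389). With PVN NC replicates 1 and 3 left out they were at -4.33 and -4.29 and were the 2 that still passed. The urocortins, which are ligands of Crhr2, were scarce: Ucn was at 0.73 CPM or less and Ucn2 at 0.24 CPM or less in every library, and Ucn3 was at 0.88 to 4.98 CPM in the PVN and 0.39 CPM or less in the CEA.

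In PVN HT against NC, 4 of the 8 tested genes of the CRH-family list were lower at an unadjusted p, beside 5.35% of genes, and 0 at an adjusted p (median -0.57). Without NC replicates 1 and 3, 1 of 8 was lower (median -0.43), beside 2.95% of genes in either direction. The thyrotropin-releasing hormone gene Trh was at -0.80 (SE 0.19, edgeR adjusted p = 0.418) and somatostatin (Sst) at -0.89 (SE 0.26, edgeR adjusted p = 0.418). Without NC replicates 1 and 3 they were at -0.48 and -0.16, and without NC replicate 2 they were at -0.95 and -1.16 and passed (edgeR adjusted p = 0.00969 and 0.00118), beside 20.2% of genes. In EA against HT, 3 of 8 were higher at an unadjusted p, beside 2.10% of genes, and 0 at an adjusted p (median 0.34, and 0.18 without HT replicate 3), with Sst at 0.52 (SE 0.10, edgeR adjusted p = 0.137) and Trh at 0.47 (SE 0.14, edgeR adjusted p = 0.587). Without HT replicate 3 these were 0.42 and 0.31. Sst was at 462 and 405 CPM in PVN NC replicates 1 and 3 and 162 to 298 CPM in the other PVN libraries, and Trh at 148 and 130 CPM in those libraries against 53.8 to 103 CPM, so both peptides were highest in the same pair of libraries as Crh.

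Of 28 genes of receptor signalling, all were tested in the PVN, and 6 were higher and 0 lower at an unadjusted p in HT against NC, beside 5.69% and 5.35% of genes (median 0.32, beside -0.010 over all genes). At an adjusted p 0 passed. Without NC replicates 1 and 3, 0 of 28 passed an unadjusted p (median 0.023), and without NC replicate 2, 12 were higher and 2 lower at an adjusted p, beside 20.2% of genes in either direction. Adcy9, an adenylyl cyclase, was at 0.79 (SE 0.30) and Rgs4, which shortens G protein signals, at 0.33 (SE 0.12), and without NC replicates 1 and 3 they were at 0.15 and 0.23. In EA against HT 1 of 28 was higher and 1 lower at an unadjusted p, near the 5.67% of all genes, and 0 passed an adjusted p. They were Rgs2 at 0.30 (SE 0.09, edgeR adjusted p = 0.598) and the arrestin Arrb1 at -0.20 (SE 0.07, edgeR adjusted p = 0.714), and in EA against SEA these genes were at 0.25 (SE 0.09) and -0.16 (SE 0.06). Between regions in NC, 7 were higher and 6 lower in the CEA at an adjusted p, beside 12.7% and 13.7% of genes. Without PVN NC replicates 1 and 3, 1 was higher and 2 lower, beside 2.455% of genes in either direction. Adcy5, an adenylyl cyclase abundant in striatum, was higher by 2.68 (SE 0.22, edgeR adjusted p = 0.00057), and Gnas, the stimulatory G protein, was at -1.32 (SE 0.17, edgeR adjusted p = 0.00236). Both still passed without those libraries, at 2.41 and -0.86 (edgeR adjusted p = 0.0367 and 0.04496). Reads of the striatal marker list were also far higher in the CEA libraries, as given above, and their part in the Adcy5 value was not tested.

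Of 20 chaperones and coregulators of the corticosteroid receptors, 19 were matched and tested. In PVN HT against NC 4 were higher and 1 lower at an unadjusted p, 0 at an adjusted p (median -0.044), beside 5.69% and 5.35% of genes at an unadjusted p, with the coregulator Nrip1 at 0.44 (SE 0.13) and the corepressor Ncor1 at 0.39 (SE 0.14). Without NC replicates 1 and 3 these were 0.22 and 0.11, and 0 of 19 were higher and 1 lower at an unadjusted p, beside 2.95% of genes in either direction. Between regions in NC, 4 were higher and 3 lower in the CEA at an adjusted p, beside 12.7% and 13.7% of genes, and 0 passed without PVN NC replicates 1 and 3, where the share of genes was 2.455%. Fkbp5, a co-chaperone that lowers the affinity of the glucocorticoid receptor, was higher by 1.07 (SE 0.17, edgeR adjusted p = 0.00493), and Stip1, a co-chaperone of the Hsp90 cycle, was at -0.56 (SE 0.11, edgeR adjusted p = 0.00995). Without PVN NC replicates 1 and 3 they were at 1.12 (edgeR adjusted p = 0.0886) and -0.35 (edgeR adjusted p = 0.205).

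Of 7 genes of corticosteroid metabolism and transport, 6 were matched. Between regions in NC, 3 of the 6 were higher and 1 lower in the CEA at an adjusted p, beside 12.7% and 13.7% of genes. Hsd11b2, which inactivates corticosteroid, had only 3, 4 and 2 counts in the CEA NC libraries. Its PVN levels were 0.29 to 1.20 CPM over all treatments. In NC Hsd11b1, which regenerates active corticosteroid, was higher in the CEA by 0.96 (SE 0.16, edgeR adjusted p = 0.00576), and Hsd11b2 was at -2.43 (SE 0.42, edgeR adjusted p = 0.00682). Without PVN NC replicates 1 and 3 they were at 1.05 (edgeR adjusted p = 0.0691) and -2.48 (edgeR adjusted p = 0.104). In PVN HT against NC 1 of the 6, the transporter gene Abcb1b, was higher at an unadjusted p (0.40, SE 0.13, edgeR adjusted p = 0.418), beside 5.69% of genes that were higher, and it was at 0.20 without NC replicates 1 and 3.

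Among 16 corticosteroid-responsive genes, 4 were higher and 0 lower in the CEA at an adjusted p in NC, beside 12.7% and 13.7% of genes, and 6 were higher and 0 lower in operated rats, beside 27.2% and 25.6% of genes. The share called in either direction was 4 of 16 in NC, near the 26.4% of all genes, and 6 of 16 in operated rats, below their 52.8%. Without PVN NC replicates 1 and 3, 1 was higher in NC, beside 2.455% of genes in either direction, and without CEA HT replicate 2 and CEA EA replicate 2, 3 were higher in operated rats, beside 57.0%. In PVN HT against NC 1 of 16 was higher at an unadjusted p, near the 5.69% of all genes, and 0 at an adjusted p (median 0.38). Without HT replicate 3, 1 was higher and 4 were lower at an unadjusted p (median -0.26), beside 6.04% of genes in either direction. That gene was Zbtb16, with a log2 fold change of 2.10 (SE 0.67, edgeR adjusted p = 0.418). It stood at 6.94, 9.33 and 40.0 CPM in HT and 3.16, 6.21 and 3.92 CPM in NC. The value was 0.89 without HT replicate 3 and 1.61 without NC replicates 1 and 3. In EA against HT 0 of the 16 passed either threshold in the PVN, with 5.67% of all genes past an unadjusted p. Without HT replicate 3, 6 of the 16 were higher at an unadjusted p and 0 at an adjusted p (median 0.57), beside 8.07% of genes in either direction. The metallothionein gene Mt2A was at 1.48 in PVN EA against SEA (SE 0.50, edgeR adjusted p = 0.917) and at 1.21 in CEA EA against SEA (SE 0.39, edgeR adjusted p = 0.9999), where it was 1.38 without CEA EA replicate 2.

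The genes whose pattern most resembled each member were ranked over 24 libraries by Pearson's r of log2 CPM after removing each region's mean, among 16209 genes; the libraries share depth and composition, and r is a description. Nr3c2 had the closest companions, Rbfox2 (r = 0.96), Pip4k2b (0.95) and Pcdh1 (0.95). Rbfox2 itself was at 19.1 and 27.3 CPM in PVN NC replicates 1 and 3 and 60.5 to 71.2 CPM in the other PVN libraries, the same pair of libraries that were low for Nr3c2. For Nr3c1 they included Kpnb1 (0.85) and Itga6 (0.84), with r lower in the PVN alone (0.50 and 0.75) than in the CEA alone (0.92 and 0.86).

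For Crh the most similar genes were Fxyd6 (r = 0.81), Rab9b (0.78) and Dcaf12l1 (0.78). Within the PVN alone their r was 0.75, 0.34 and 0.73. For Crhr2 the most similar genes were RGD1561916 (0.81), AC109048.1 (0.80) and Tmed3 (0.80). Crhbp was most like B3gat1 (0.77), Nov (0.77) and Nxph3 (0.75), but within the PVN alone r was 0.37, -0.18 and -0.20. Crhr1 had the weakest likeness, with AABR07072108.1 (0.66), Rab44 (0.64) and Slc13a3 (0.64).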

How the data were processed

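Groups and replicate numbers came from the sample titles. Per the study's methods, reads of strand-specific libraries were aligned with HISAT2 and assigned to genes with featureCounts; versions and the strand setting are not given in the sources used here. The submitters' notes list GRCh38 and the methods a rat build (mRatBN7.2); gene ends in the table reach 282724300 on chromosome 1, past the end of that build's chromosome 1, so coordinates are given as the table has them with the build unverified. The authors deposited whole-number counts per gene, without normalization. A stray header line inside the table, which exchanges CEA EA replicates 2 and 3, was left out.

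Counts of all genes were tested in R 4.3.3 with edgeR 4.0.16 (filterByExpr, TMM, two-sided quasi-likelihood test, Benjamini-Hochberg adjustment over all genes tested, threshold 0.05), each comparison on its own groups. The study's own threshold was an unadjusted p, so both are given. A count of 0 allows up to 3 counts, a limit that covers counting error only. Intervals of log2 fold changes are 95% intervals of the edgeR fit and include the spread between libraries. The fit was also run on simulated counts with known changes as a check of the code, and its outcome is not given here. Alternatives were DESeq2 1.42.0, relative log expression factors, no filter, all libraries in 1 fit, a replicate block, and left-out libraries. The genes, lists and rules were chosen with earlier results of these data known: the 6 members, up to 2 genes with the smallest p for each pathway list, and the 3 genes most like each member, of which 1 is not reported here; Ucn, Ucn2, Ucn3, Rbfox2, Oxt, Avp, Sim1 and Otp were added as values. The list genes Ep300, Abcb1a and Pecam1 were not matched. Deviations from group means of same-numbered libraries were correlated in CEA HT against NC (r = 0.24, 0.18 and 0.29 over 17768 genes) and in NC between regions (0.29, 0.13 and 0.20). All 3 r were also positive in SEA between regions (0.19, 0.034 and 0.098) and in PVN SEA against HT (0.014, 0.049 and 0.073). The methods divide 12 rats into 4 groups and say that brain samples came from different rats of 1 batch. Whether a PVN and a CEA library of the same number share a rat is therefore not clear from the sources used here.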

Additional observations from a re-analysis of the deposited data

How the results depend on the processing

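Of 36 named gene results, 522 alternatives changed the sign of 2 and the call of 17 values; 48 other gene results, mostly near 0, changed sign in 59 of 630 alternatives and call in 0. Members called in PVN HT against NC, and in operated PVN against NC, ran from 0 to 3 with single libraries left out, and the interaction of HT against NC from 0 to 1; the highest count came each time without PVN NC replicate 2, where 20.2%, 33.7% and 3.93% of all genes passed. DESeq2 called 2 members in operated PVN against NC, Crhr2 (-0.65, adjusted p = 0.0331) and Nr3c2 (0.67, adjusted p = 0.0282), beside 19.1% of genes; the cause was not tested. In the other 11 treatment and interaction comparisons DESeq2 called 0 members, as edgeR did. Members called between regions in NC fell from 3 to 0, and the share of all genes from 26.4% to 2.455%, without PVN NC replicates 1 and 3, a setting chosen after seeing the data that leaves 1 PVN library assumed to vary like the CEA libraries. Single left-out libraries moved Crhr2 in CEA HT against NC from -0.083 to 1.15 and Crhr1 between regions in NC from -0.34 to 0.030. The replicate block changed no call of a member: in NC between regions it gave 3 members called and -3.12 for Crh, and in PVN HT against NC -0.79 for Crh and 0 called. Crh and Crhr2 had 8 to 54 counts in CEA libraries, and the parts of depth and of the spread between libraries in the width of their intervals were not tested. Without HT replicate 3, a setting also chosen after seeing the data, the corticosteroid-responsive genes higher at an unadjusted p in PVN EA against HT went from 0 to 6 of 16.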
